A study of Mus musculus with 6 samples.

Results

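The genes described here are 28 genes of cholesterol synthesis and of the SREBP2 pathway that controls it, out of 54532 genes listed for each library. They were chosen by gene symbol from knowledge of the pathway, with earlier results of these data known. All 28 symbols had a row of values. Some other genes of the pathway were not analysed here. The members comprise 8 genes of the early steps, 3 of the squalene steps, 8 of the late sterol steps, 6 regulators of SREBP2 and 3 genes of sterol transport. RNA-seq was performed on iBMDMs, mouse bone marrow-derived macrophages that grow as a line because they were immortalized with retroviruses carrying v-raf and v-myc. Control iBMDMs had received a lentivirus with a control shRNA (3 libraries), and PGAM5 KD iBMDMs a lentivirus with an shRNA against Pgam5 (3 libraries). All 6 libraries came from cells stimulated with LPS at 100 ng/ml for 4 hours, so no library shows the resting state. Each group is an shRNA line of its own, so the knockdown and a difference between the lines cannot be told apart, and p-values measure the spread between libraries whose origin in separate cultures is not stated.

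Cholesterol is built from acetyl-CoA. The early enzymes condense it to mevalonate and convert mevalonate to isoprenoids, which also feed protein prenylation, dolichol and ubiquinone. The squalene enzymes join isoprenoids into squalene and close the rings of lanosterol, and the late enzymes turn lanosterol into cholesterol. SREBP2, the product of Srebf2, is a transcription factor held in the endoplasmic reticulum by SCAP and the INSIG proteins while sterols are plentiful. When sterols fall, SCAP escorts SREBP2 to the Golgi, where the proteases encoded by Mbtps1 and Mbtps2 release its active domain, which raises most genes of the pathway. In macrophages, sterol synthesis is known to be lowered by type I interferon.

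Values are FPKM, fragment counts divided by exon length and by library depth, so that levels of different genes can be compared per length. The depth was between 18165599 and 20178812 fragments in control libraries and between 18163464 and 24388917 fragments in PGAM5 KD libraries. Summed FPKM over all genes was higher in PGAM5 KD libraries (317936 to 324298) than in control libraries (304393 to 304889). Pgam5 itself had 17.1, 13.0 and 13.4 FPKM in control replicates against 4.33, 5.75 and 4.53 FPKM after PGAM5 KD. Its log2 fold change was -1.40 ± 0.13 (SE, with limma adjusted p = 0.000358), as the labels say. Of 10 macrophage markers, 9 were detected in every library, and Mertk was listed at 0 in all 6. Summed FPKM of these markers ran from 2987 to 3073 in control and from 2700 to 2729 in PGAM5 KD libraries, with Lyz2 its most abundant gene, but the markers moved in opposite directions. Lyz2 (mean of 1666 FPKM in control and 1265 FPKM in PGAM5 KD libraries), Csf1r (231 and 148 FPKM) and Cd68 (468 and 406 FPKM) fell. Fcgr1 (4.34 and 14.1 FPKM), Adgre1 (7.93 and 15.1 FPKM), Itgam (2.41 and 4.46 FPKM) and Cd14 (461 and 683 FPKM) rose, and Spi1 and Ptprc did not pass the threshold. Of 8 markers each of neutrophils, fibroblasts and lymphocytes, 5 of each list were at 0 in every library and none exceeded 0.328 FPKM. The part of these differences in macrophage markers in the results below was not tested. In bulk RNA, fewer cells that express a gene and less RNA of it per cell cannot be told apart.

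In PGAM5 KD iBMDMs, the mRNAs of the cholesterol pathway were lower for Hmgcs1, Sqle, Hsd17b7, Cyp51, Insig1 and Npc1 with ratios of the group means from 0.647 to 0.762, and for 6 further genes to a smaller extent. Pmvk, Insig2 and Npc2 were higher, by between 22.3% and 43.9%. With limma on log2(FPKM + 1), 27 of the 28 members had a mean of at least 1 FPKM and were tested. Tm7sf2 was below that level. Of the 27, 12 fell and 3 rose at an adjusted p under 0.05, and 12 were not past the threshold. Of all 10540 genes tested, 14.9% fell and 16.8% rose, so the members fell in a larger share (44.4%) and rose in a smaller share (11.1%) than all genes. The median log2 fold change was -0.18 over the members and 0.01 over all genes tested. No member passed the combined threshold of an adjusted p under 0.05 with a log2 fold change beyond 1 in either direction, which 1.32% of all genes passed. All 3 PGAM5 KD libraries lay below all 3 control libraries for 13 of the 28 members, against 22.9% of all genes tested, and above them for 3 members, against 24.2%. For each of these 16 members the exact two-sided permutation test gave p = 0.1, the smallest value that 3 libraries against 3 allow. When FPKM was scaled to TPM, which removes the difference in summed FPKM, 14 members fell and 2 rose, against 21.6% and 10.3% of all genes tested. The calls over all genes then moved from 47.1% lower and 52.9% higher to 67.7% lower and 32.3% higher.

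**Figure D1:**
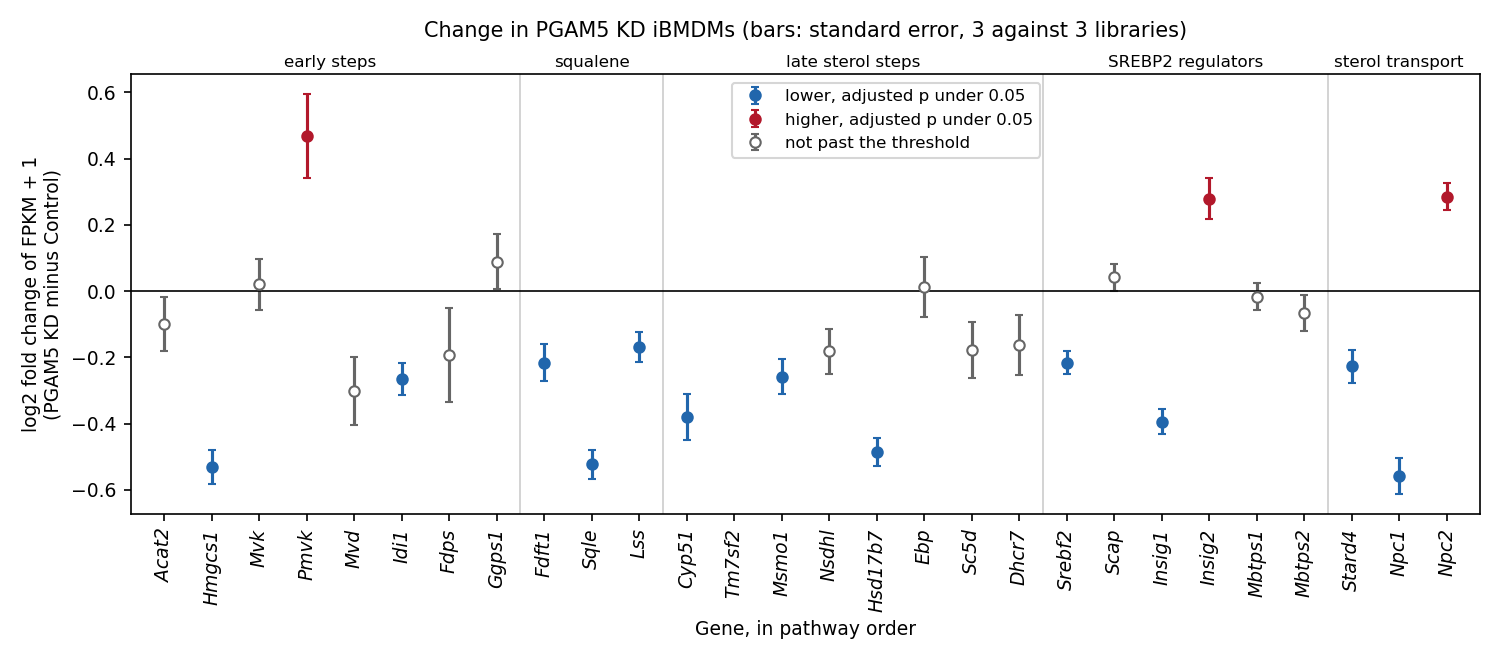
Log2 fold change of FPKM + 1 in PGAM5 KD against control iBMDMs for each gene in pathway order, with the standard error of limma as bars. Filled points passed an adjusted p under 0.05, blue for the 12 genes that were lower and red for the 3 that were higher. Tm7sf2 was below the expression filter and has no point.

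**Figure D2:**
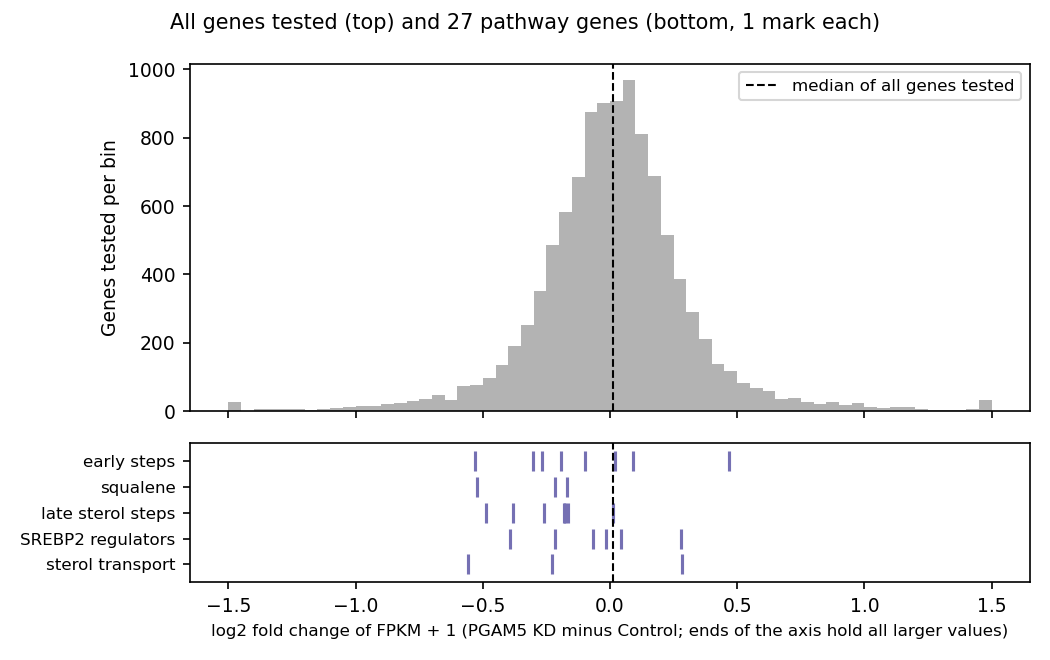
Histogram of the log2 fold change of FPKM + 1 over all 10540 genes tested, with the 27 tested pathway genes below it as marks in 5 groups and the median of all genes (0.01) as a dashed line. Of the pathway genes, 20 lie below 0 and 7 above it, and of all genes tested, 5007 lie below 0 and 5533 above it.

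Among the 8 early enzymes, Hmgcs1 and Idi1 fell, Pmvk rose, and the other 5 did not pass the threshold. Hmgcs1 (ENSMUSG00000093930, chromosome 13 of GRCm38 from 119690379 to 119708260, plus strand) encodes the cytosolic HMG-CoA synthase, which makes the substrate of the rate-limiting reductase. It had 25.8, 24.4 and 24.7 FPKM in control replicates against 17.3, 17.7 and 15.9 FPKM after PGAM5 KD. Every PGAM5 KD library was below every control library, and the mean fell from 25.0 ± 0.732 to 17.0 ± 0.941 FPKM (SD, n = 3). The log2 fold change was -0.53 ± 0.05 (SE, with limma adjusted p = 0.000447). Idi1, the isomerase that makes dimethylallyl diphosphate, had 25.2, 26.6 and 26.1 FPKM in control replicates against 21.8, 22.3 and 20.2 FPKM after PGAM5 KD. The groups did not overlap, and the log2 fold change of Idi1 was -0.27 ± 0.05 (SE, with limma adjusted p = 0.00649).

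The promoter of Hmgcs1 is shown because SREBP binding sites, called sterol regulatory elements, are best known from genes of this kind. The search used RefSeq promoter windows of GRCm38.p6, from 250 bases before to 50 bases after a start site, of which 29 covered 23 of the members. The core letters TCACNCCAC, on either strand, were found in the window of 1 of these 23 members, Hmgcs1, and in 1.42% of the 7679 genes tested that had a window (1.24% of all 32851 windows). The stretch below lies on the plus strand at chr13:119690204-119690232. Capitals mark the core, which starts 137 bases before the start site.
Hmgcs1: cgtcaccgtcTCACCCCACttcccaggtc
The shorter letters CACNCCAC, which the core contains, were found in 3 of the 23 members (Acat2, Hmgcs1 and Insig1) and in 7.38% of the genes tested with a window. These matches are a description of letters, and binding was not measured.

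Pmvk, phosphomevalonate kinase, was the only enzyme of the 19 that rose. It lies on chromosome 3 of GRCm38 from 89454541 to 89469013 (ENSMUSG00000027952), and had 7.42, 5.27 and 5.83 FPKM in control replicates against 10.2, 8.36 and 8.11 FPKM after PGAM5 KD. All PGAM5 KD libraries were above the control libraries, with a log2 fold change of 0.47 ± 0.13 (SE, with limma adjusted p = 0.0301). This call rested on between 182 and 383 fragments per library. It was lost without control replicate 2 or 3 or any 1 of the PGAM5 KD libraries, with limma adjusted p from 0.052 to 0.0889 and log2 fold changes from 0.38 to 0.52, and after scaling to TPM (0.40, adjusted p = 0.0529). It was also lost with no filter on low values (limma, adjusted p = 0.0845) and once GC and exon length effects were removed (0.35, limma adjusted p = 0.0807). Control replicate 1 was the highest of its group and PGAM5 KD replicate 1 the highest of the other, and the spread between control libraries (18.1% of their mean) was the largest among the members in control cells.

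Mvd, which decarboxylates mevalonate diphosphate, had a mean of 25.5 ± 2.87 FPKM in control and 20.5 ± 2.35 FPKM in PGAM5 KD libraries (SD, n = 3). Its libraries overlapped, since control replicate 2 at 22.5 FPKM was below PGAM5 KD replicate 3 at 23.0 FPKM, and the log2 fold change of -0.30 ± 0.10 (SE, with limma adjusted p = 0.0627) did not pass the threshold. Mvd did pass under 6 of 16 alternatives, which were TPM scaling, a minimum mean of 5 FPKM, voom, removal of GC and length effects, and leaving out control replicate 2 or PGAM5 KD replicate 3. Over all 16 its log2 fold change ran from -0.41 to -0.23 and its limma adjusted p from 0.0141 to 0.164. Mevalonate kinase, encoded by Mvk, had 7.21 ± 0.581 and 7.33 ± 0.582 FPKM, and the cytosolic thiolase Acat2 had 23.3 ± 2.38 and 21.6 ± 1.43 FPKM, in control and PGAM5 KD libraries (SD, n = 3). Ggps1, which makes geranylgeranyl diphosphate for prenylation, had 5.07 ± 0.354 and 5.47 ± 0.544 FPKM. Acat2 matches Tcp1 on the opposite strand over 445 bases at 98.7% identity, and Tcp1 held a mean of 12423 fragments in control libraries against 1144 for Acat2. For Mvk, Acat2 and Ggps1 the libraries overlapped and the adjusted p was between 0.391 and 0.86. Fdps, the farnesyl diphosphate synthase, is uncertain. It was listed at only 1.13 FPKM in control and 0.871 FPKM in PGAM5 KD cells, while only 11.8% to 23.4% of the fragments on Fdps and its 6 processed pseudogenes were on Fdps itself. Most were on Gm3571, which is 98.9% identical over 1062 bases. Summed over Fdps and these pseudogenes and scaled to depth, the log2 ratio of PGAM5 KD to control was 0.06.

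All 3 squalene genes fell, and for each the groups did not overlap. Sqle (ENSMUSG00000022351, chromosome 15 of GRCm38 from 59315077 to 59331192) encodes squalene epoxidase, a rate-limiting oxygen-dependent enzyme of the pathway. It had the highest level of the 19 enzymes in control cells, with 35.1, 34.7 and 35.9 FPKM, and 23.5, 23.7 and 25.4 FPKM in PGAM5 KD cells. All control libraries lay above all PGAM5 KD libraries, and the log2 fold change was -0.52 ± 0.04 (SE, with limma adjusted p = 0.000222). Fdft1, squalene synthase, had 14.7, 14.5 and 16.2 FPKM in control replicates against 13.3, 12.9 and 12.4 FPKM after PGAM5 KD. The log2 fold change was -0.22 ± 0.06 (SE, with limma adjusted p = 0.0265). Leaving out control replicate 3, PGAM5 KD replicate 2 or PGAM5 KD replicate 3 raised the limma adjusted p of Fdft1 to 0.0692, 0.0695 and 0.0834. Its call was also lost with no filter on low values (limma, adjusted p = 0.0527) and with the replicate number as a block (limma, adjusted p = 0.0656). The end of Fdft1 shares 774 of its 4227 exon bases with Ctsb on the opposite strand, and Ctsb, at 395 FPKM in control and 299 FPKM in PGAM5 KD cells, was far more abundant, so the count of Fdft1 depends on how shared fragments were treated.

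Lss, lanosterol synthase, had 9.53, 9.14 and 9.32 FPKM in control replicates against 8.19, 8.15 and 8.24 FPKM after PGAM5 KD. The libraries separated cleanly, but the change was small, with a log2 fold change of -0.17 ± 0.04 (SE, with limma adjusted p = 0.0282). Leaving out any 1 of the 6 libraries moved the adjusted p above the threshold, to between 0.0543 and 0.0849, as did the replicate number as a block (limma, adjusted p = 0.0745). Once dependence on GC content and exon length had been removed, Lss stood at a log2 fold change of -0.06 (limma, adjusted p = 0.398).

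Of the 8 late sterol enzymes, Hsd17b7, Cyp51 and Msmo1 fell, Nsdhl, Ebp, Sc5d and Dhcr7 did not pass the threshold, and Tm7sf2 was not tested. Hsd17b7 (ENSMUSG00000026675, chromosome 1, minus strand, from 169949535 to 169969241) encodes a 3-ketosteroid reductase of C4 demethylation. Its libraries had 15.6, 16.0 and 15.7 FPKM in control replicates against 11.1, 11.2 and 10.7 FPKM after PGAM5 KD. The SD was 1.15% of the mean in control and 2.43% in PGAM5 KD libraries, the mean fell by 30.4%, and the log2 fold change was -0.49 ± 0.04 (SE, with limma adjusted p = 0.000273). Cyp51, lanosterol 14-demethylase, had 27.6, 28.1 and 27.5 FPKM in control replicates against 20.3, 23.6 and 19.5 FPKM after PGAM5 KD. PGAM5 KD replicate 2 was the highest of its group but still below the control libraries, and the log2 fold change was -0.38 ± 0.07 (SE, with limma adjusted p = 0.00687). Msmo1, the C4 methyl sterol oxidase, fell from 21.5 ± 1.26 to 17.8 ± 0.438 FPKM (SD, n = 3), with a log2 fold change of -0.26 and an adjusted p of 0.0101 from limma.

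Nsdhl works in the same C4 demethylation as Msmo1 and Hsd17b7. Its 3 PGAM5 KD libraries (12.9, 12.9 and 11.6 FPKM) were all below the control libraries (13.9, 13.5 and 15.4 FPKM), but the log2 fold change of -0.18 did not pass the threshold (limma, adjusted p = 0.0835). Nsdhl passed after scaling to TPM, at -0.25 (limma, adjusted p = 0.0303). Sc5d and Dhcr7, which carry out desaturation and the final reduction of the sterol ring, had log2 fold changes of -0.18 and -0.16, with overlapping libraries and limma adjusted p of 0.154 and 0.213. Without PGAM5 KD replicate 1, Sc5d passed at -0.26 (limma, adjusted p = 0.0379). Ebp, the sterol isomerase, had 11.6 ± 1.34 FPKM in control and 11.6 ± 0.863 FPKM in PGAM5 KD libraries (SD, n = 3). Tm7sf2, a sterol C14 reductase, was at 0.734 FPKM in control and 0.691 FPKM in PGAM5 KD cells, with 58 to 66 fragments per library.

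**Figure D3:**
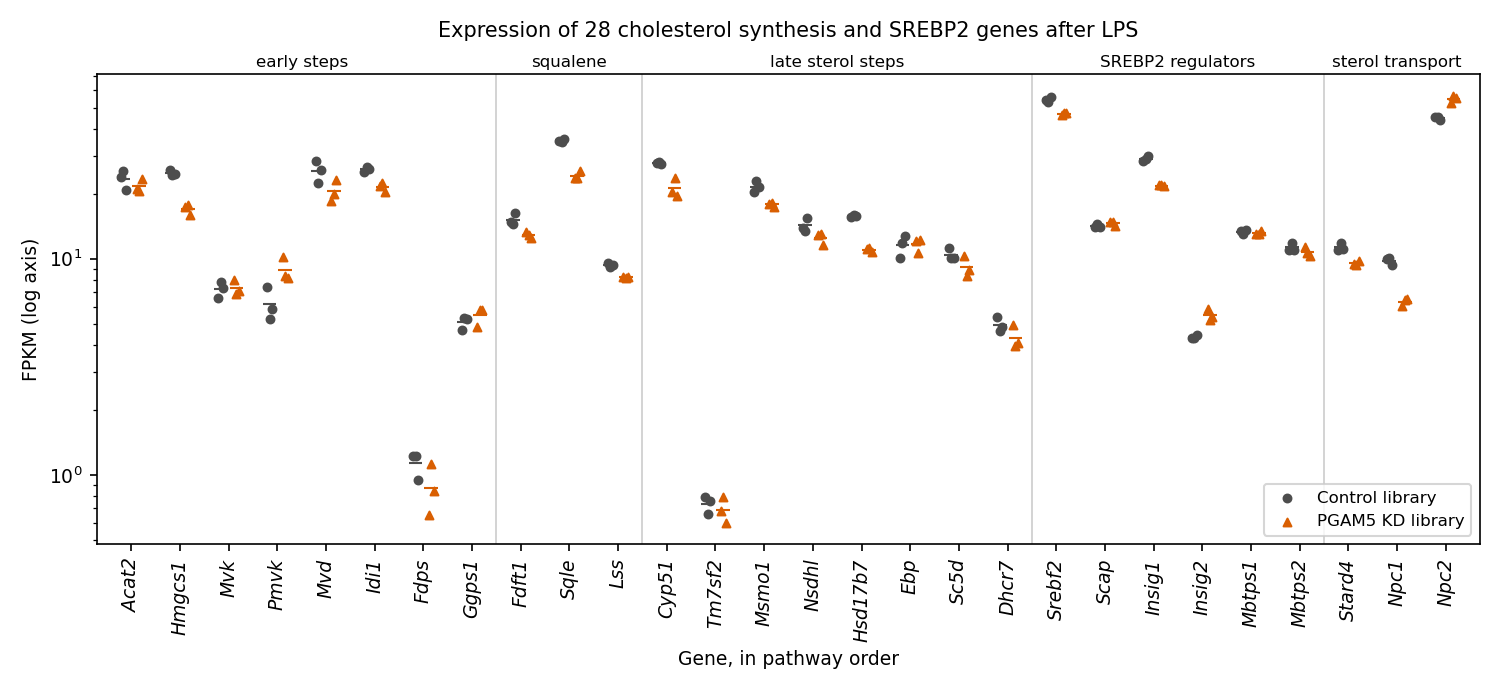
FPKM of each gene in every library on a log axis, in pathway order, with circles for the 3 control libraries, triangles for the 3 PGAM5 KD libraries and lines for the group means. Levels run from 0.601 FPKM (Tm7sf2) to 56.8 FPKM (Npc2), and the groups separate most clearly for Hmgcs1, Sqle, Hsd17b7, Insig1 and Npc1.

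A feature that these genes shared apart from their enzyme roles was a CCAAT box, the site of the factor NF-Y, which is known to act beside SREBP. The letters CCAAT were found on either strand in the promoter windows of 19 of 23 members (82.6%), against 43.0% of the genes tested with a window and 37.4% of all windows. All 8 members that fell and had a window held it, as did the 3 that rose and 8 of the other 12, so its presence did not separate the members by direction. Acat2, Scap, Mbtps1 and Mbtps2 had a window without it. Fdps, Fdft1, Sqle, Stard4 and Npc1 had no window. The stretches below show the nearest box upstream of the start site for the members with a window that fell most, Hmgcs1, Hsd17b7, Insig1 and Cyp51, and for Insig2, which rose. They are written 5′ to 3′ on the strand of the gene, with CCAAT or its reverse complement ATTGG in capitals. They lie at chr13:119690296-119690320 (plus strand), chr1:169969203-169969227 (minus), chr5:28071186-28071210 (plus), chr5:4104712-4104736 (minus) and chr1:121332604-121332628 (minus), where the box starts at positions -45, -12, -216, -29 and -29 from the start site. Hmgcs1 also held a box downstream of its start, at position 11.
Hmgcs1: cccgcctctcATTGGctgaaagcgg
Hsd17b7: ccgagccttgATTGGtcgaggtgcg
Insig1: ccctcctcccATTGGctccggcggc
Cyp51: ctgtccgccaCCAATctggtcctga
Insig2: accttccacaCCAATctatattaaa
In the windows of these 19 members the box was found from 1 to 5 times, most often in Mvk, whose expression did not pass the threshold.

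The regulators of SREBP2 moved in different directions. Srebf2 (ENSMUSG00000022463, chromosome 15 from 82147181 to 82205379) had the highest level of the 28 genes in control cells, with 54.4, 52.9 and 56.2 FPKM, and 46.2, 47.0 and 47.1 FPKM in PGAM5 KD cells. The groups did not overlap, and Srebf2 fell by 0.22 ± 0.03 on the log2 scale (SE, with limma adjusted p = 0.00429). Scap, which escorts the SREBP proteins, had 14.2 ± 0.250 and 14.6 ± 0.350 FPKM in control and PGAM5 KD libraries (SD, n = 3). The protease genes Mbtps1 (13.3 ± 0.289 and 13.2 ± 0.221 FPKM) and Mbtps2 (11.3 ± 0.473 and 10.7 ± 0.531 FPKM) overlapped between the groups as well. For these 3 genes the log2 fold change lay between -0.07 and 0.04, and the adjusted p between 0.395 and 0.791.

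The INSIG genes, which encode the retention proteins of the SCAP-SREBP complex, moved apart. Insig1, itself a known target of SREBP2 and on chromosome 5 from 28071363 to 28078662 (ENSMUSG00000045294), had 28.2, 29.0 and 29.7 FPKM in control replicates against 21.8, 22.0 and 21.6 FPKM after PGAM5 KD. The log2 fold change of Insig1 was -0.39 ± 0.04 (SE, with limma adjusted p = 0.000411), and no library of 1 group reached the other. Insig2 (ENSMUSG00000003721, chromosome 1 at 121304353 to 121332589, minus strand) had 4.30, 4.28 and 4.45 FPKM in control replicates against 5.87, 5.22 and 5.38 FPKM after PGAM5 KD. All PGAM5 KD libraries were above the control libraries, with a log2 fold change of 0.28 ± 0.06 (SE, with limma adjusted p = 0.016) and between 271 and 456 fragments per library. The level of Insig1 was 6.56, 6.77 and 6.67 times that of Insig2 in the control libraries and 3.72, 4.21 and 4.01 times in the PGAM5 KD libraries.

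**Figure D4:**
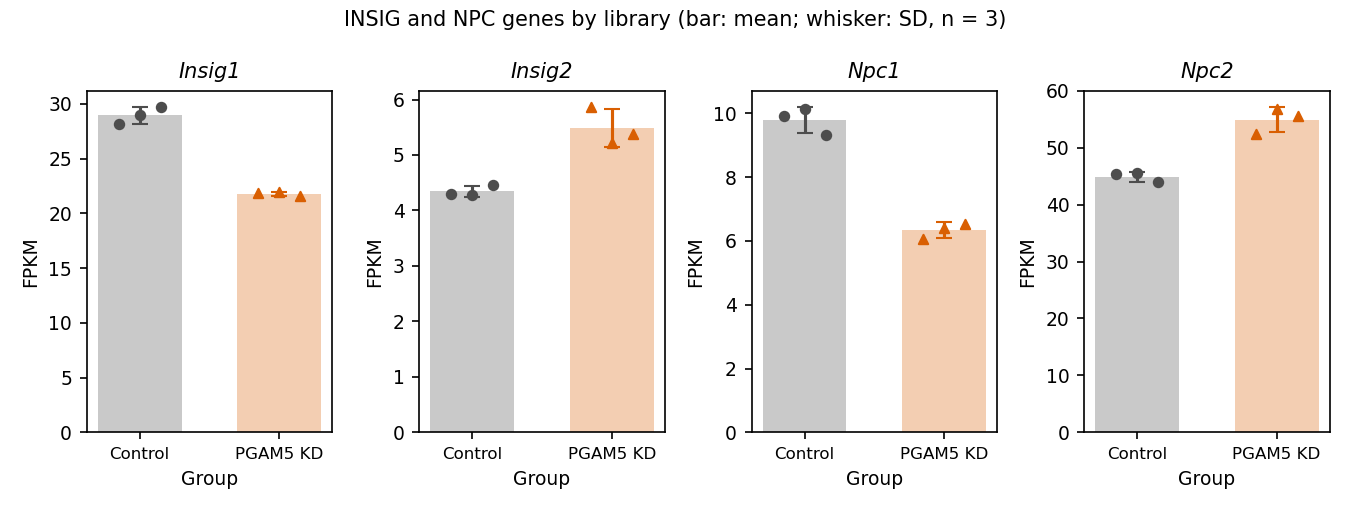
FPKM of Insig1, Insig2, Npc1 and Npc2 in each library, with bars for the group mean and whiskers for the SD (n = 3). Insig1 and Npc1 were lower and Insig2 and Npc2 higher in all 3 PGAM5 KD libraries.

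Sterol transport showed a similar divergence. NPC1 and NPC2 act in sequence to move cholesterol out of late endosomes and lysosomes, NPC2 in the lumen and NPC1 in the membrane. Npc1 (ENSMUSG00000024413, chromosome 18, minus strand, 12189692 to 12236400) had 9.93, 10.1 and 9.33 FPKM in control replicates against 6.05, 6.41 and 6.53 FPKM after PGAM5 KD. Its log2 fold change of -0.56 ± 0.05 (SE, with limma adjusted p = 0.000506) was the lowest among the members, and the mean fell by 35.3%. This rank did not hold in every setting. With GC content and exon length effects removed, Npc1 stood at -0.43, behind Hmgcs1 (-0.51), Sqle (-0.48) and Hsd17b7 (-0.45). Hmgcs1 was also lower than Npc1 without control replicate 2 or PGAM5 KD replicate 1. Npc2 (ENSMUSG00000021242, chromosome 12, minus strand, 84754562 to 84773152) had 45.4, 45.5 and 43.9 FPKM in control replicates against 52.4, 56.8 and 55.5 FPKM after PGAM5 KD, a log2 fold change of 0.28 ± 0.04 (SE, with limma adjusted p = 0.00247). The groups did not overlap for either gene, and the level of Npc2 was between 4.49 and 4.71 times that of Npc1 in control and between 8.51 and 8.86 times in PGAM5 KD libraries. Rmc1 overlaps 511 of the 11317 exon bases of Npc1 on the opposite strand and was itself listed at 5.14 FPKM in control and 3.62 FPKM in PGAM5 KD cells. Stard4, which carries cholesterol through the cytosol and is known to follow SREBP2, fell from 11.3 ± 0.482 to 9.50 ± 0.213 FPKM (SD, n = 3), with a log2 fold change of -0.23 and an adjusted p of 0.0136 from limma.

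Summed over the 19 enzymes, expression was 287.0, 284.2 and 286.7 FPKM in control replicates against 237.4, 237.1 and 235.1 FPKM after PGAM5 KD, so the mean fell by 17.3%. The sum of the squalene genes dropped by 24.1%, that of the late enzymes dropped by 17.6% and that of the early enzymes dropped by 13.6%. These sums, which weigh genes of high level most, were not tested. Taken gene by gene, the median log2 difference of the 27 tested members from the control mean was -0.17, -0.21 and -0.21 in PGAM5 KD replicates 1, 2 and 3, with 20, 22 and 19 members below that mean. In control libraries 16, 12 and 15 members were below it. That mean was taken from the same control libraries, so their counts are no independent comparison. Over all genes tested, 5007 of 10540 had a log2 fold change below 0, against 20 of the 27 members.

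Other genes around the pathway were read from lists of known function. Of 15 tested genes of sterol sensing and regulated degradation, Erlin2 and Aup1 fell and none rose. The share that fell (13.3%) was near the 14.9% of all genes tested. Erlin2, which helps degrade the reductase and the INSIG proteins, had 8.46 ± 0.144 FPKM in control and 4.87 ± 0.355 FPKM in PGAM5 KD libraries (SD, n = 3), a log2 fold change of -0.69 ± 0.06 (SE, with limma adjusted p = 0.000331). Srebf1, the gene of the SREBP that favours fatty acid synthesis, had 23.6 ± 1.71 and 24.5 ± 0.719 FPKM and did not pass the threshold (adjusted p = 0.511). Of 16 genes that use isoprenoids for prenylation, dolichol or ubiquinone, Pggt1b (-0.25) and Dolk (-0.19) fell and Rabggta (0.26) rose on the log2 scale. These shares, 12.5% lower and 6.25% higher, were below the 14.9% and 16.8% of all genes tested.

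Of 17 tested genes of cholesterol uptake and movement, 5 fell (29.4%) and 1 rose (5.88%), against 14.9% and 16.8% of all genes tested. The strongest decreases were in Nceh1 (log2 fold change -0.63), a hydrolase of stored cholesterol esters, in Lipa (-0.54), the lysosomal hydrolase of lipoprotein cholesterol esters, and in the endocytic receptor gene Lrp1 (-0.34). Lipa had 138, 138 and 142 FPKM in control replicates against 96.3, 96.3 and 93.3 FPKM after PGAM5 KD, with no overlap. Of 9 tested LXR targets and oxysterol genes, Apoe (-0.50) and Abcg1 (-0.23) fell and Cyp27a1 (0.42) and Lpcat3 (0.26) rose, 22.2% in each direction. Ch25h, the gene of cholesterol 25-hydroxylase, was listed at 0 in 5 of the 6 libraries and at 0.101 FPKM in PGAM5 KD replicate 1. Of 15 tested genes of fatty acid synthesis, 6 fell and 3 rose, led by malic enzyme Me1 (0.51), fatty acid synthase Fasn (-0.48) and the citrate carrier Slc25a1 (0.40), and the median log2 fold change was -0.07. The 40.0% of this list that fell was close to the 44.4% of the cholesterol genes. These lists were fitted only on FPKM as deposited, and none was compared with the cholesterol genes by a test.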

How the data were processed

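Poly(A) RNA of 6 libraries was sequenced. The authors deposited FPKM per Ensembl gene and library. The submitters' processing notes name HISAT2 2.0.5, featureCounts 1.5.0-p3 and mm10, the same build as GRCm38. The annotation release and the treatment of strand and of multiply mapped fragments are not given in the sources used here. Gene names and exon lengths came from GENCODE M21, which held 54495 of 54532 genes. FPKM times exon length fell on whole fragments (within 0.01, for values under 1000) for 96.8% to 97.1% of values, which gave the depth.

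Genes averaging at least 1 FPKM over the 6 libraries (10540) were compared as log2(FPKM + 1) by limma 3.58.1, run under R 4.3.3 (mean-variance trend, two-sided, Benjamini-Hochberg over all genes). The fit was tested on simulated data in which the changed genes moved further than any member past the threshold. That simulation does not bear on calls of their size. A fold change on this scale understates that of low genes. Similar sequences were found with blastn 2.17.0 (at least 85% identity over 200 bases). All members were described, Pgam5, Srebf1 and Ch25h were added, and of each other list the 3 genes past the threshold with the largest change were named, with Abcg1 named after its values were seen. Srebf1 and Ch25h were likewise chosen after their values were seen. The members, the lists and the tests were chosen with earlier results of these data known.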

Additional observations from a re-analysis of the deposited data

How the results depend on the processing

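The counts of genes past the threshold, Pgam5 and the tested members were recomputed under 16 alternatives: scaling to TPM, a pseudocount of 0.1, all genes kept, a minimum mean of 5 FPKM, centring on the library median, quantile normalization, no mean-variance trend, a replicate block, voom on recovered fragments, removal of GC and exon length effects, and leaving out each library in turn. Fdps, Dhcr7 and Insig2 were below the minimum of 5 FPKM and have 15 alternatives. The sums, ratios, markers, promoter matches and other gene lists were not recomputed. The number of members that fell was between 10 and 14, and the number that rose between 2 and 3, while over all genes the number that fell ran from 1129 to 2276 and the number that rose from 1084 to 1938, so the background moved with the setting. Of the 15 members past the threshold, 12 remained past it in every alternative in which they were tested (for Insig2, 15 of the 16), and Pmvk, Fdft1 and Lss did not. Mvd, Nsdhl and Sc5d passed it under 6, 1 and 1 alternatives. With the replicate number as a block (replicate block), 10 members fell, since Fdft1 (adjusted p = 0.0656) and Lss (adjusted p = 0.0745) were lost, and 3 rose. Same-numbered libraries did not deviate together (correlations of deviations from group means from -0.05 to 0.02), and no library correlated best with its own number. Small changes below the threshold turned sign. Scaled to TPM, the log2 fold changes of Mvk, Ebp and Scap were -0.048, -0.059 and -0.032. With GC content and exon length removed, those of Mvk, Ebp, Mbtps1 and Mbtps2 were -0.047, -0.066, 0.084 and 0.062. Leaving out 1 library, that of Mvk ran from -0.035 to 0.069 and that of Ebp from -0.072 to 0.082. The genes higher in PGAM5 KD among all genes numbered 1084 after scaling to TPM. The genes past both thresholds numbered 261 with a pseudocount of 0.1, 76 with a minimum mean of 5 FPKM and 278 with voom. The filter of 5 FPKM tests fewer genes, and the smaller pseudocount enlarges the log2 fold change of low genes. Scaling to TPM moved the median log2 fold change over all genes tested from 0.01 to -0.05. Other causes of these differences were not tested. Fdps and Tm7sf2 had at most 104 and 66 fragments per library, which limits the precision of their values.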
